A study of Mus musculus with 4 samples.

Results

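The genes described here encode 31 subunits and partners of the Polycomb repressive complexes, taken by symbol from the 24428 genes counted in each library. They comprise 11 members of PRC2, 15 Ring, Pcgf, Cbx and Phc members of PRC1, 4 proteins that accompany PRC1 (Rybp, Bcor, Scmh1 and L3mbtl2) and Asxl1, a subunit of the deubiquitinase PR-DUB. Poly(A) RNA was sequenced from a 129SvEv line of mouse embryonic stem cells in which both Smarca4 alleles are floxed and a CreER recombinase is activated by 4-hydroxytamoxifen. The genotype label of all 4 libraries, ethanol included, names an acute deletion of Smarca4, so group membership rests on the sample titles and treatment labels. The 2 ethanol libraries are floxed cells given the vehicle, and the 2 tamoxifen libraries are floxed cells given 0.8 uM 4-hydroxytamoxifen. Exposure lasted 48 h and cells were collected at 72 h, in serum medium with LIF. Tamoxifen-treated cells without floxed alleles were not analysed here, so loss of the gene, the drug and active Cre cannot be told apart. The number of clones or separate cultures behind the libraries is not given. The p-values below therefore describe only how far the libraries spread, which may be technical.

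Polycomb complexes keep developmental genes silent. PRC2 methylates histone H3 through EZH2 or EZH1, which need EED and SUZ12, and accessory proteins direct it to CpG islands. PRC1 ubiquitinates histone H2A through RING1B (encoded by Rnf2) or RING1A (Ring1) paired with 1 PCGF protein. Canonical PRC1 adds a CBX protein, which reads the PRC2 mark, and a PHC protein, which polymerises, whereas variant PRC1 carries RYBP or its relative instead. In embryonic stem cells the targets are mostly CpG-rich promoters of lineage regulators. BAF complexes built on the Smarca4 product BRG1 have been reported to oppose Polycomb occupancy at some sites.

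Smarca4, the deleted gene, was at 328 and 409 CPM (read counts scaled to a common library size with TMM factors) with ethanol and at 68.5 and 68.7 with tamoxifen, a 5.38-fold fall. Libraries held 13458463 to 27086142 reads in genes, of which the 31 members took 0.476 to 0.519%. All 12 mouse ES cell markers were detected, summing to 5524 and 5649 CPM with ethanol and 5621 and 5929 with tamoxifen. Of these, 2 were called higher and 1 lower with tamoxifen (4 and 2 with GC correction). Of 29 fibroblast markers, 28 had reads in every library, and Lum had 0 reads in ethanol replicate 2 and 4 to 6 in the others. With tamoxifen 21 of the 28 tested were higher and 0 lower (19 and 0 with GC correction). Beside this, 21.5% of all tested genes were higher and 22.9% lower (9.38% and 9.57% with GC correction). The summed level of the fibroblast markers went from 3536 to 4063 CPM with ethanol to 5605 to 5937 with tamoxifen. Whether fibroblasts were present, and what part they had in the results below, was not tested. In bulk RNA, a change in the number of cells of a type and a change in RNA per cell cannot be told apart.

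Reads in no annotated gene made up 51.7 and 40.8% of counted reads with ethanol and 37.6 and 35% with tamoxifen, so this share separated the groups, and its part in the results below was not tested.

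All 31 members passed the filter on low counts, with 11 to 18285 reads per library. Tamoxifen raised 10 members and lowered 3 (edgeR quasi-likelihood test, adjusted p under 0.05 over all 14479 genes tested), and 18 did not pass. That is 41.9% of members, beside 44.5% of all tested genes. Higher calls made up 32.3% of members against 21.5% of all genes, and lower calls 9.68% against 22.9%. Among PRC1 members 7 of 15 rose and 1 fell, with a median log2 fold change of 0.35. Among PRC2 members 1 of 11 rose and 2 fell, with a median of -0.29, beside -0.01 over all genes. Tamoxifen libraries lay above both ethanol libraries for 13 members and below both for 11, each beside 37.0% of all genes, and overlapped them for 7. Groups without overlap thus made up 77.4% of members and 74.0% of all genes.

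GC content moved with these differences. PRC2 transcripts had a median GC content of 45.3%, PRC1 transcripts 54.6% and all tested genes 50.8%. With each library's GC trend removed, 7 members were higher and 1 lower, 25.8% of members beside 19% of all genes (9.38% higher and 9.57% lower). The medians were then 0.05 for PRC2 and 0.09 for PRC1. Counts were 2 higher and 1 lower in PRC2 and 4 higher and 0 lower in PRC1. Only 5 members (Phf1, Bmi1, Cbx8, Phc2 and L3mbtl2), 16.1%, passed both tests with the same sign, beside 14.3% of all genes, and all 5 were higher. Without tamoxifen replicate 1, the uncorrected counts were 1 higher and 0 lower in PRC2 and 5 higher and 1 lower in PRC1. Without ethanol replicate 1 they were 1 higher and 5 lower in PRC2 and 9 higher and 2 lower in PRC1, and without ethanol replicate 2 they were 2 and 1 in PRC2 and 7 and 1 in PRC1. With GC correction, dropping tamoxifen replicate 1 gave medians of 0.10 for PRC2 and 0.01 for PRC1, and dropping tamoxifen replicate 2 gave -0.01 and 0.13. Dropping ethanol replicate 1 gave 0.02 and 0.19, and dropping ethanol replicate 2 gave 0.07 and 0.23. In the GC-corrected runs with 1 tamoxifen library, calls became far fewer over all genes as well. A corrected call that ended in those runs therefore does not set a member apart from other genes. The estimate printed with each such call below shows how far the value itself moved.

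**Figure D1:**
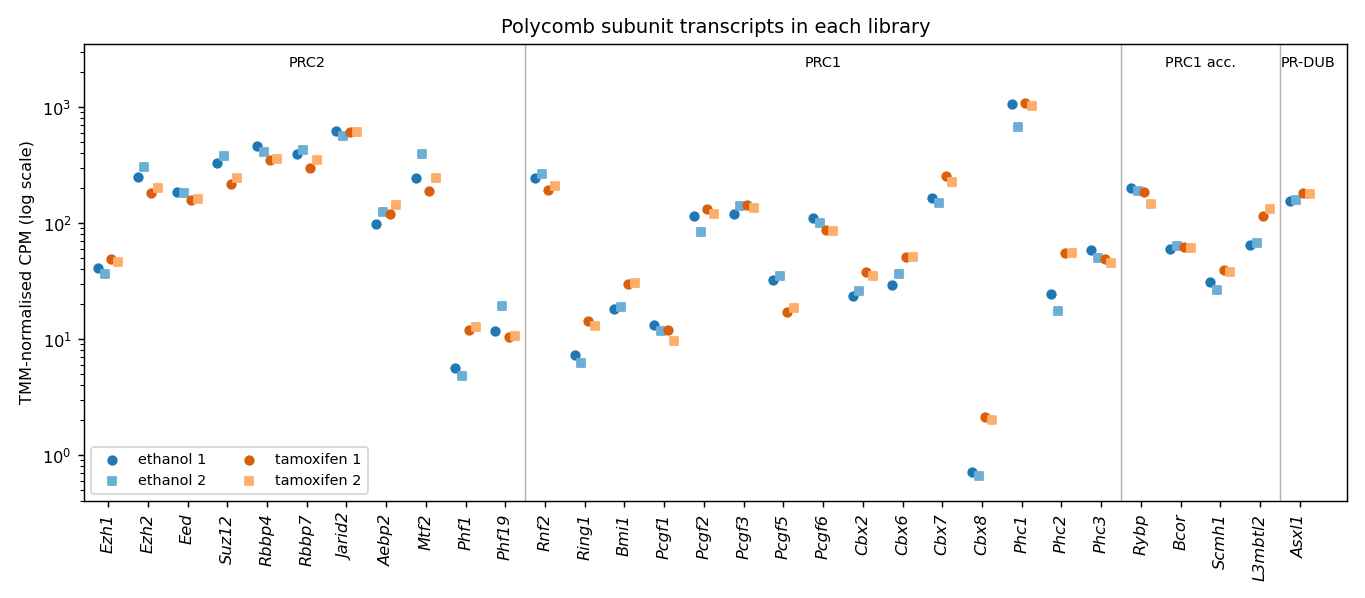
TMM-normalised CPM (log axis) of the 31 members in each library, in the order PRC2, PRC1, PRC1 accessory and PR-DUB. Each point is 1 library. Tamoxifen points stand above both ethanol points for 13 members and below both for 11, each beside 37.0% of all tested genes. Groups do not overlap for 77.4% of members and 74.0% of all tested genes. The 13 include all 4 Cbx members, and the 11 include 5 of the 6 PRC2 core genes. With GC correction 1 of these Cbx members and 0 of the core genes are called.

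Promoters of 4 members are shown because the results turn on these genes: Suz12 and Ezh2, called lower without GC correction, and Phf1 and Bmi1, called higher with and without it. Each is the 250 bases before the RefSeq start (GRCm38.p6, a build other than that of the counts), 5′ to 3′, with the GC box GGGCGG in capitals on either strand. The windows are chr11:79992856-79993105 (plus strand) for Suz12, chr6:47595031-47595280 (minus) for Ezh2, chr17:26932877-26933126 (plus) for Phf1 and chr2:18676768-18677017 (plus) for Bmi1.
Suz12: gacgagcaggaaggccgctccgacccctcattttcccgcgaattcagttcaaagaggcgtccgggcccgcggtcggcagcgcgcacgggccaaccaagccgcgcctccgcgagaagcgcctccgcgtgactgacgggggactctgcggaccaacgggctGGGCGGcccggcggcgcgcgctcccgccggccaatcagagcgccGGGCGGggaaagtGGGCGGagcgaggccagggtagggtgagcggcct
Ezh2: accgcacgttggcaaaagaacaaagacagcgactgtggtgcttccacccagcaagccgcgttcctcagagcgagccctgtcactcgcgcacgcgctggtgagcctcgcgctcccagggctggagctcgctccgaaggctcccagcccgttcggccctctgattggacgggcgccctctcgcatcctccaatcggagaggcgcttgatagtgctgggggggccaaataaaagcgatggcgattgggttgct
Phf1: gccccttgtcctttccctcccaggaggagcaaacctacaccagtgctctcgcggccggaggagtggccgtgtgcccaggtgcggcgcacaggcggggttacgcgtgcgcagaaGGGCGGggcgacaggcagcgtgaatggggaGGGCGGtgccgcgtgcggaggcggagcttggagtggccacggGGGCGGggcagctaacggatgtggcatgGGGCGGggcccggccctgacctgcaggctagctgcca
Bmi1: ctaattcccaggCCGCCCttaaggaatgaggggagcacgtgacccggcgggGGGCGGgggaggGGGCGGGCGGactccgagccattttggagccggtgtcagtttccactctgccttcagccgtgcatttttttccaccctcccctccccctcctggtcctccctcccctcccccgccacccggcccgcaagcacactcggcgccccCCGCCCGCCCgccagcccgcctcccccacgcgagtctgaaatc
The Bmi1 window was 70.4% G and C, although the Bmi1 transcripts (39.8%) were the poorest in GC of all members. Suz12 showed the same contrast, 73.6% in the window against 41.7% in the transcripts, and Ezh2 63.6% against 43.9%, whereas Phf1 was rich in both (72% and 59.6%). A GC box occurred at 6 positions before Bmi1, 4 before Phf1, 3 before Suz12 and 0 before Ezh2, which instead held 3 CCAAT boxes. RefSeq windows were found for 28 of the 31 members, 38 windows in all, and 25 of these held a GC box (both strands, overlapping matches counted) against 32.7% of all 32851 windows of that length. CCAAT occurred in 12 of the 38, beside 33.9% of all windows, CACGTG in 7, beside 6.02%, and the YY1 core CGCCATNTT in 1, beside 1.12%. The set of all windows was not limited to genes tested here, and its median GC content was 52.4%, against 64.2% in member windows. Shares among tested genes or windows of like GC content were not computed. The excess of GC boxes therefore does not set the members apart from other expressed genes. The median number of CpG dinucleotides was 18.5 in member windows and 6 in all windows. By call, the median was 21.5 in 12 windows of genes that rose, 23 in 5 windows of genes that fell (3 of them of Pcgf5) and 14 in 21 windows of genes not called.

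Of the 6 PRC2 core genes, 2 fell and 0 rose in the uncorrected test, and 0 were called with GC correction. Suz12, the scaffold on which PRC2 assembles, was at 331 and 382 CPM with ethanol and 219 and 244 with tamoxifen. It fell by 0.62 ± 0.16 log2 (SE, n = 2 per group; edgeR quasi-likelihood test, adjusted p = 0.00708). Ezh2, the main methyltransferase of dividing cells, went from 251 and 301 to 183 and 202 CPM and fell by 0.52 ± 0.16 (edgeR, adjusted p = 0.0181). The groups of both genes did not overlap. With GC correction both were close to 0 and not called, Suz12 at 0.02 ± 0.14 and Ezh2 at -0.03 ± 0.14. Uncorrected, the call of Suz12 ended without tamoxifen replicate 1 (-0.55), and that of Ezh2 without either tamoxifen library (-0.45 without replicate 1, -0.59 without replicate 2), without ethanol replicate 2 (-0.37) and with total counts (-0.39).

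The other core subunits did not pass. Eed, whose product binds the methyl mark and stimulates the enzyme, was at 185 and 181 CPM with ethanol and 159 and 161 with tamoxifen (-0.19 ± 0.14 log2). Rbbp4 (-0.29 ± 0.15) and Rbbp7 (-0.35 ± 0.16) encode histone-binding proteins that PRC2 shares with other chromatin complexes. Rbbp7 was called lower without ethanol replicate 1 (-0.40). Ezh1, the paralog associated with resting cells, was at 40.9 and 36.6 CPM with ethanol and 49.4 and 45.7 with tamoxifen, 0.30 ± 0.15 and 0.33 ± 0.14 with GC correction. It was the single core gene whose tamoxifen libraries lay above both ethanol libraries, and it was called higher with total counts (0.42). The 6 core genes together summed to 1660 and 1735 CPM with ethanol and 1256 and 1359 with tamoxifen.

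Of the 5 accessory subunits of PRC2, 1 rose and 0 fell, and 2 rose and 1 fell with GC correction. Phf1, a Polycomb-like protein that recruits PRC2 to CpG-rich DNA, was low, at 5.67 and 4.80 CPM with ethanol (87 and 125 reads), and at 12.0 and 12.7 with tamoxifen (170 and 226 reads). It rose 2.38-fold, by 1.25 ± 0.19 log2 (edgeR, adjusted p = 0.000450), and by 0.64 ± 0.18 with GC correction (adjusted p = 0.0270). The corrected call ended without tamoxifen replicate 1 (0.65) or tamoxifen replicate 2 (0.61). Phf19, a second Polycomb-like gene, had 11.8 and 19.4 CPM with ethanol and 10.3 and 10.6 with tamoxifen. Its value of -0.59 ± 0.22 just missed the threshold (edgeR, adjusted p = 0.0503), and with GC correction it fell by 0.83 ± 0.24 (adjusted p = 0.0363), the single corrected decrease among the 31 members. The ethanol libraries of Phf19 differed widely. Without ethanol replicate 1 the uncorrected value was -0.88 and called, and the corrected call ended when ethanol replicate 2 (-0.35) or either tamoxifen library was left out (-0.81 without replicate 1, -0.84 without replicate 2).

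Mtf2, the most abundant Polycomb-like gene of stem cells, was at 245 and 392 CPM with ethanol and 189 and 246 with tamoxifen, so the groups overlapped (-0.55 ± 0.23 log2, adjusted p = 0.0706 in edgeR). It was called lower by DESeq2 (-0.56), with no filter on low counts (-0.57), without ethanol replicate 1 (-0.85) and without tamoxifen replicate 2 (-0.75), and turned to 0.09 with GC correction. Jarid2 and Aebp2 encode partners of the other PRC2 form, which binds nucleosomes carrying ubiquitinated H2A. Jarid2 had 622 and 561 CPM with ethanol and 610 and 604 with tamoxifen, 0.04 ± 0.15 log2. Aebp2 had 97.7 and 124 with ethanol and 120 and 142 with tamoxifen (0.24 ± 0.16, not called), and with GC correction it was called higher by 0.64 ± 0.15 (edgeR, adjusted p = 0.0125). That call ended without tamoxifen replicate 1 (0.74) or tamoxifen replicate 2 (0.53), and Aebp2 was called uncorrected without ethanol replicate 2 (0.43).

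Of the catalytic subunits of PRC1, Ring1 rose and Rnf2 did not pass. Ring1 was at 7.23 and 6.22 CPM with ethanol and 14.3 and 12.8 with tamoxifen and rose 2.03-fold, by 1.02 ± 0.18 log2 (edgeR, adjusted p = 0.00115). Rnf2, the main H2A ligase of stem cells, was at 242 and 265 CPM with ethanol and 192 and 210 with tamoxifen, -0.34 ± 0.15 (adjusted p = 0.0835), and was called lower without ethanol replicate 1 (-0.40). With GC correction the values were 0.34 ± 0.18 for Ring1 and 0.32 ± 0.14 for Rnf2, neither called. Their transcripts differ widely in GC content (60.7 and 41.5%).

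Of the 6 Pcgf genes, which determine the type of PRC1 formed, 1 rose and 1 fell. Bmi1, a PCGF protein of canonical PRC1 known for self-renewal of adult stem cells, was at 18.2 and 18.7 CPM with ethanol and 29.9 and 30.7 with tamoxifen. Both tamoxifen libraries stood clear of both ethanol libraries, and the replicates lay close together. Bmi1 rose 1.64-fold, by 0.71 ± 0.15 log2 (edgeR, adjusted p = 0.00293), and by 1.50 ± 0.15 with GC correction (adjusted p = 5.62e-05). Of the 13 called members, Bmi1 alone kept its call under every alternative run, including each left-out library with and without GC correction. Leaving out 1 library, with or without GC correction, gave 0.70 to 1.53.

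Pcgf5, which forms a variant PRC1 and whose paralog is Pcgf3, fell 1.89-fold, from 32.4 and 34.6 to 17.1 and 18.5 CPM (-0.91 ± 0.16 log2; edgeR, adjusted p = 0.000820). Without GC correction that call held in every alternative run. With GC correction it was -0.36 ± 0.15 and not called. Pcgf3 itself had 120 and 142 CPM with ethanol and 142 and 136 with tamoxifen (0.09 ± 0.15) and was called higher with GC correction (0.51 ± 0.14), a call lost when ethanol replicate 1 (0.41) or either tamoxifen library was left out (0.46 without replicate 1, 0.56 without replicate 2). Pcgf2, the canonical relative of Bmi1, had 114 and 83.6 CPM with ethanol and 133 and 119 with tamoxifen (0.35 ± 0.17) and passed without ethanol replicate 1 (0.60) and with total counts (0.48). Pcgf6 (-0.28 ± 0.14), the subunit of the complex that includes L3MBTL2, and Pcgf1 (-0.19 ± 0.18), the partner of BCOR, did not pass.

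All 4 Cbx members rose in the uncorrected test. Cbx7, the main CBX protein of stem cells, went from 165 and 149 to 253 and 224 CPM, by 0.60 ± 0.15 log2 (edgeR, adjusted p = 0.00718). Cbx6 went from 29.1 and 36.3 to 50.5 and 50.9 CPM (0.63 ± 0.16) and Cbx2, which compacts chromatin, from 23.3 and 25.8 to 37.5 and 34.9 (0.56 ± 0.15). With GC correction the values were 0.10, 0.09 and 0.07, none called, and the GC content of these transcripts lay between 57.6 and 58.3%. Uncorrected, Cbx7 (0.51) and Cbx2 (0.50) lost the call without tamoxifen replicate 1. Cbx8, usually found in differentiating cells, was near the detection limit, with 11 and 17 reads under ethanol and 30 and 36 under tamoxifen. It rose 3.02-fold from 0.717 and 0.653 to 2.12 and 2.02 CPM, by 1.60 ± 0.34 log2 (edgeR, adjusted p = 0.00303), and by 1.30 ± 0.34 with GC correction (adjusted p = 0.0189). That corrected call ended without tamoxifen replicate 1 (1.26) or tamoxifen replicate 2 (1.34). Cbx2 and Cbx8 are next to each other on chromosome 11, and 1 coding gene lies between Cbx6 and Cbx7 on chromosome 15.

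The Phc genes encode the polymerising subunits of canonical PRC1. Phc2 rose 2.62-fold, from 24.6 and 17.5 to 54.8 and 54.8 CPM, by 1.39 ± 0.18 log2 (edgeR, adjusted p = 0.000177), and by 0.74 ± 0.16 with GC correction (adjusted p = 0.00600). The corrected call ended without tamoxifen replicate 1 (0.71) or tamoxifen replicate 2 (0.75). Phc1, the form most used in stem cells, had 1055 and 671 CPM with ethanol and 1092 and 1025 with tamoxifen. Ethanol replicate 2 stood below the other libraries, and Phc1 (0.29 ± 0.20) was called higher without ethanol replicate 1 (0.66). Phc3 was at 59.0 and 49.5 CPM with ethanol and 48.8 and 45.1 with tamoxifen (-0.21 ± 0.15).

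Among proteins that accompany PRC1, L3mbtl2, a subunit of the E2F6-type complex, rose 1.90-fold from 64.2 and 66.6 to 116 and 133 CPM, by 0.93 ± 0.15 log2 (edgeR, adjusted p = 0.000554). With GC correction it rose by 0.65 ± 0.14 (adjusted p = 0.00819), a call that ended without tamoxifen replicate 1 (0.75) or tamoxifen replicate 2 (0.55). Scmh1 went from 30.7 and 26.5 to 39.3 and 38.0 CPM, by 0.44 ± 0.15 (adjusted p = 0.0343). It was not called with GC correction (0.32), by DESeq2 (0.43), without ethanol replicate 2 (0.34) or without either tamoxifen library (0.41 and 0.46). Rybp, which stimulates variant PRC1, had -0.24 ± 0.16 and Bcor -0.01 ± 0.14. Asxl1, the PR-DUB subunit, which acts with BAP1 to remove ubiquitin from H2A, had 156 and 158 CPM with ethanol and 181 and 179 with tamoxifen (0.20 ± 0.14), a separation without a call.

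**Figure D2:**
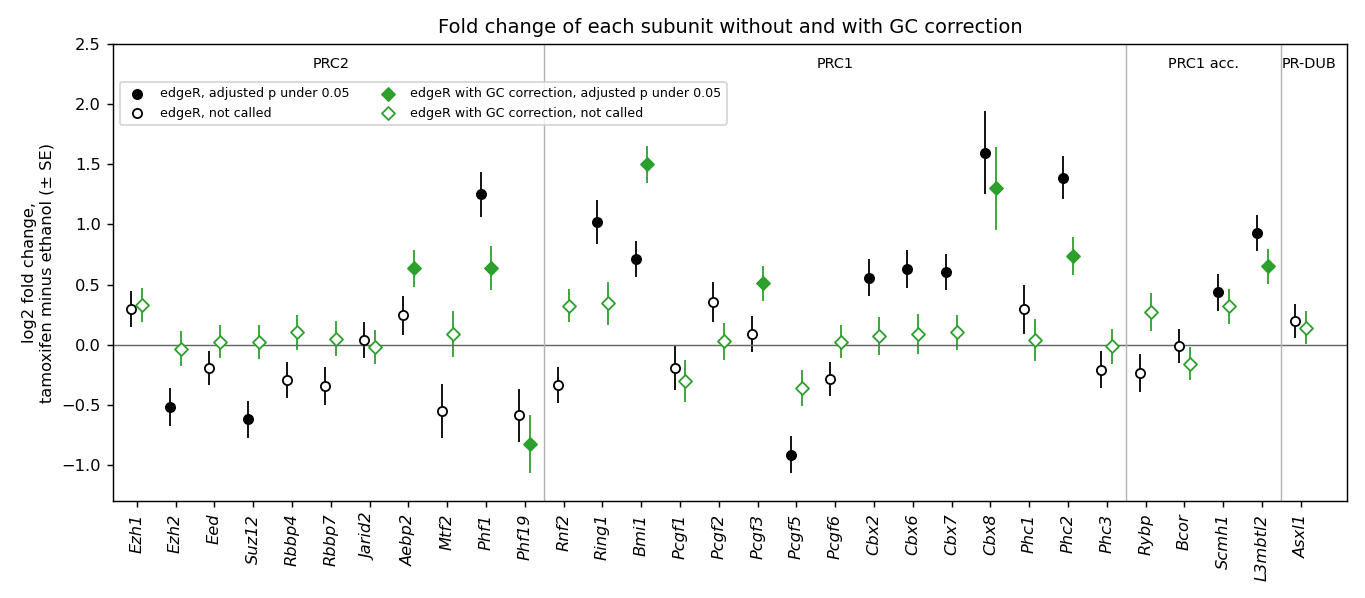
Log2 fold change of each member, tamoxifen minus ethanol, with its standard error, from edgeR (circles) and edgeR with GC correction (diamonds). Filled symbols have an adjusted p under 0.05. Bmi1 moves from 0.71 to 1.50, while Suz12 and Ezh2 move to values near 0.

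Transcript GC content and fold change followed each other across members. Of the 14 members under 50% GC, 11 had a negative estimate, and the correction moved all 14 upward. Of the 17 members at or over 50%, 14 had a positive estimate, and the correction moved 16 downward. The 3 genes called lower lay between 41.7 and 43.9% GC, and 9 of the 10 called higher lay between 52.6 and 60.7%. Bmi1 at 39.8% was the exception. Fold change and GC content had a Spearman correlation of 0.72 over the 31 members, which share the 4 libraries, and 0.65 over all tested genes. After correction it was 0.15 over the members. The correction takes out the trend over all genes, so these moves and the smaller correlation follow from the method. A real difference that follows GC content would be removed as well. The sign of 9 members changed with the correction. Even within ethanol, replicate 2 against replicate 1 followed GC content across genes (Spearman -0.27).

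**Figure D3:**
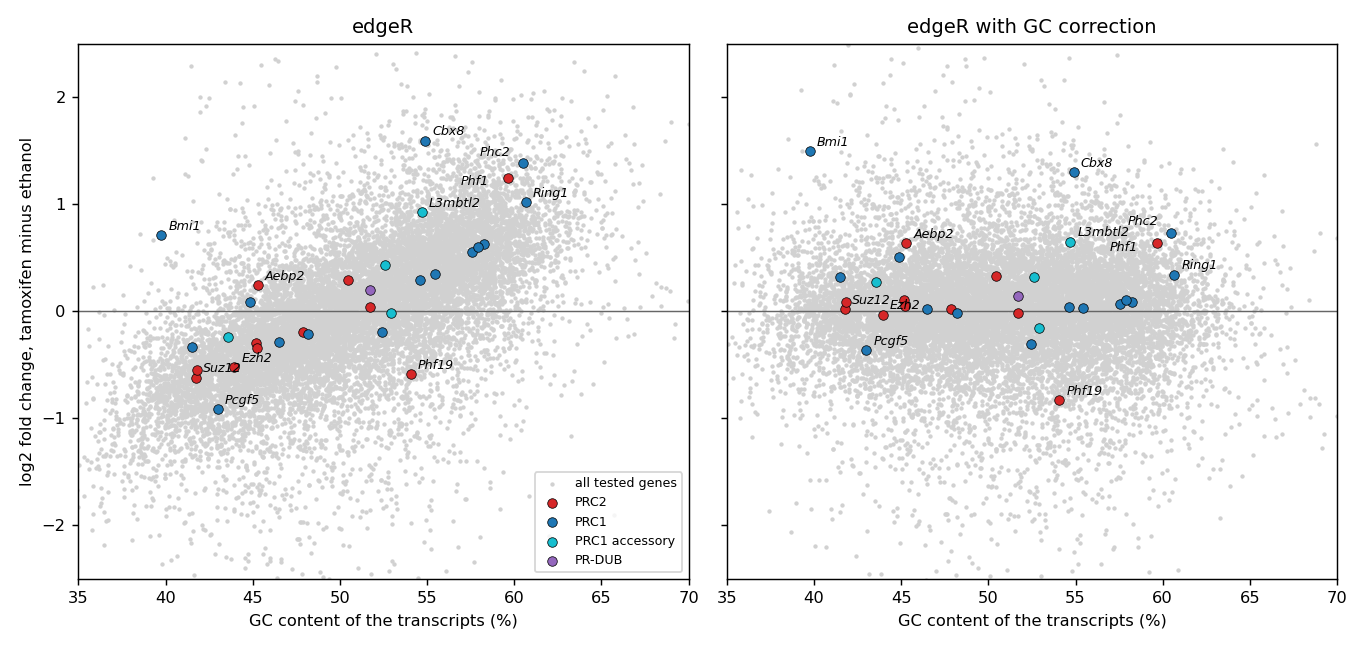
Log2 fold change, tamoxifen minus ethanol, against GC content of the transcripts (%) for members (coloured by complex) and all tested genes (grey), from edgeR (left) and edgeR with GC correction (right). Of 14395 genes plotted, 98 lie outside the axes. Members follow the slope on the left, with Bmi1 above it at 39.8% GC, and lie mostly near 0 on the right.

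Ratios of 2 members inside a library do not depend on how libraries are scaled. For 14 pairs of related subunits, the tamoxifen ratios did not overlap the ethanol ratios in 8 pairs, and in 9 with GC correction. Among single genes 74.0% did not overlap, and the share among other gene pairs was not computed. The count therefore does not set these pairs apart from other genes. An exact permutation test of 2 against 2 libraries cannot go below p = 0.333 (two-sided), the value of these 8 (0.583 adjusted over the 14 pairs). Ezh2 reads per Ezh1 read numbered 6.13 and 8.23 with ethanol and 3.71 and 4.42 with tamoxifen, a log2 change of -0.81, and -0.36 with GC correction. Phc1 reads per Phc2 read went from 42.9 and 38.3 to 19.9 and 18.7 (-1.07, corrected -0.68). Cbx7 reads per Cbx8 read went from 220 and 222 to 117 and 110 (-0.96, corrected -1.18). Pcgf3 per Pcgf5 went from 3.71 and 4.08 to 8.31 and 7.34 (1.01, corrected 0.88), and Mtf2 per Phf1 from 42.9 and 81.4 to 15.6 and 19.4 (-1.76, corrected -0.52). In each of these 5 pairs the groups stayed apart after correction.

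The other 9 pairs differed in how far the correction moved them. Rnf2 per Ring1 read went from 33.3 and 42.5 to 13.4 and 16.3, a change of -1.35 that was -0.02 with correction, with overlapping groups. Pcgf2 per Bmi1 changed by -0.35 uncorrected and -1.46 corrected, without overlap in either. Phc1 per Phc3 changed by 0.53 without overlap and, corrected, by 0.07 with overlap. Groups overlapped uncorrected but not corrected for Mtf2 per Phf19 (0.00, corrected 0.87), Pcgf6 per Pcgf1 (-0.09, corrected 0.33) and Jarid2 per Aebp2 (-0.21, corrected -0.66). Cbx7 per Cbx2 (0.04, corrected 0.02), Cbx7 per Cbx6 (-0.04, corrected -0.02) and Rbbp4 per Rbbp7 (0.06 in both) overlapped in both forms.

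**Figure D4:**
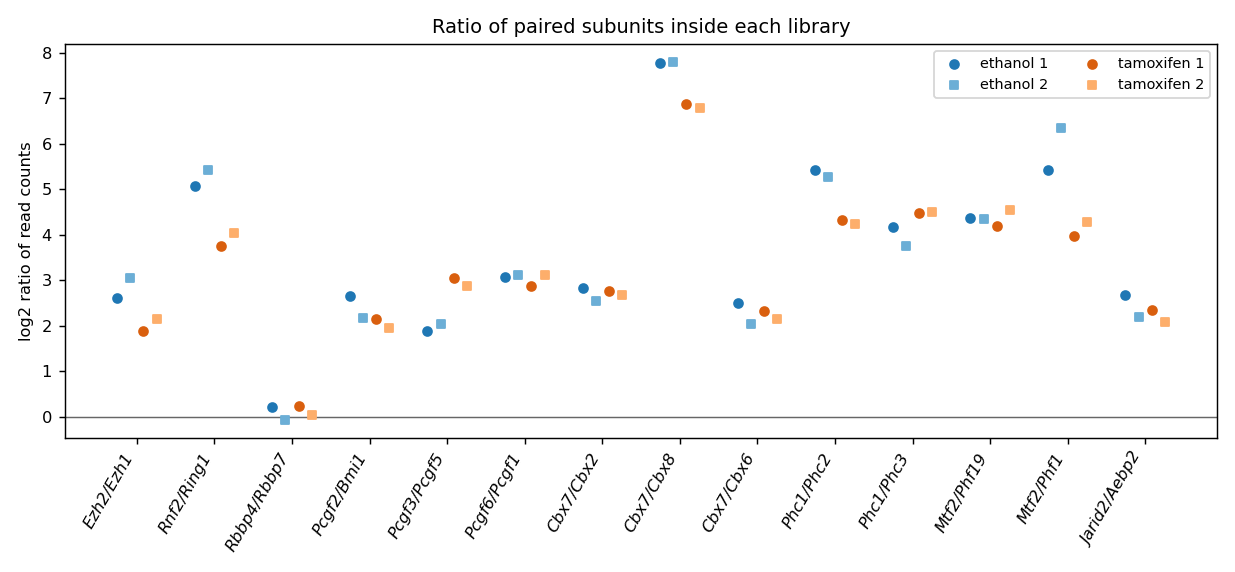
Log2 ratio of read counts for 14 pairs of related members in each library, without GC correction. Each point is 1 library, and pairs such as Phc1/Phc2 and Cbx7/Cbx8 show both tamoxifen points below both ethanol points, while Cbx7/Cbx2 and Rbbp4/Rbbp7 overlap.

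Levels of different genes were compared as CPM per kilobase of transcript. In ethanol the highest levels were those of Mtf2 (409 ± 134 CPM per kilobase; SD, n = 2), Rbbp7 (288 ± 16.5), Phc1 (256 ± 80.7), Jarid2 (237 ± 17.1), Rnf2 (229 ± 14.9) and Cbx7 (221 ± 15.4). The lowest were those of Cbx8 (0.191 ± 0.0126), Phf1 (2.08 ± 0.243) and Ring1 (3.31 ± 0.351). Of the 30 neighbouring pairs in this order, 16 overlapped in the ethanol libraries, among them every step from Rbbp7 to Cbx7. The median transcript length was used, and some members have short annotated forms. With the longest transcript Mtf2 was the ninth and Phc1 the top gene, while the lowest 3 were the same. Within families, Cbx7 made up 90.6 ± 1.68% of the level of the 4 Cbx members with ethanol and 90.5 ± 0.652% with tamoxifen (79.0 and 78.9% by the longest transcript). Shares were not GC corrected. Ring1 went from 1.43 ± 0.240 to 3.56 ± 0.474% of the Ring level (4.02 and 9.64% by the longest transcript). The log2 change of Rnf2 per Ring1 was -1.35 uncorrected and -0.02 with GC correction, with overlapping groups. Ezh1 went from 7.50 ± 1.44 to 12.4 ± 1.34% of the Ezh level (8.60 and 14.1%). Ezh2 per Ezh1 changed by -0.81 uncorrected and -0.36 corrected, and Phc1 per Phc2 by -1.07 and -0.68. Phc2 went from 7.67 ± 0.480 to 15.1 ± 0.584% of the Phc level (2.51 and 5.15% by the longest transcript), and Phc1 remained the main form (80.8 ± 0.514% with tamoxifen).

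Over all tested genes 21.5% were called higher and 22.9% lower (9.38% and 9.57% with GC correction). Of 28 further Polycomb genes (partners of variant PRC1, PR-DUB and PRC2), 7 were higher and 5 lower, with a median log2 fold change of 0.07. With GC correction 6 were higher and 3 lower. The smallest adjusted p belonged to E130012A19Rik, the PRC2 partner also called Epop, which rose 2.96-fold (1.57 ± 0.15 log2; 0.61 and called with GC correction). Lcorl, a relative of another PRC2 partner, fell 2.84-fold (-1.51 ± 0.15; -0.50 and called with GC correction). Without tamoxifen replicate 1 these counts were 3 higher and 4 lower, and without tamoxifen replicate 2 they were 5 and 3. With GC correction they were 1 and 0 without either. Of 40 transcription factor genes known as Polycomb targets in stem cells, 28 passed the filter and 13 of these rose and 0 fell, with a median of 0.73 and, after GC correction, 0.55 with 7 higher and 0 lower. A gene that passed only through the tamoxifen libraries had to differ, so this count does not stand for all 40. Foxa2 rose 2.62-fold (0.89 log2 with GC correction) and Lhx1 2.90-fold (1.32). Uncorrected, 7 were higher without tamoxifen replicate 1, 21 without ethanol replicate 1 and 8 by DESeq2, and with GC correction 2 and 1 without tamoxifen replicates 1 and 2. Lower calls appeared with GC correction when ethanol libraries were left out, 1 without ethanol replicate 1 and 3 without ethanol replicate 2. The fibroblast markers given above rose alongside. Of 15 primitive endoderm markers 5 rose and 1 fell, and with GC correction 1 was higher (Foxa2) and 1 lower. The endoderm and target lists share genes, Foxa2 among them, so their counts are not separate observations. The part of the fibroblast and endoderm markers in the counts of Polycomb genes and targets was not tested.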

How the data were processed

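Gene count tables of 4 libraries were used. Build mm9 and the programs Bowtie 1.1.1, CASAVA 1.8.2, DESeq2 and HTSeq are named, without their roles, per the submitters' processing notes. Annotation and strand setting are not stated. The deposited counts were used as they are. Closing summary lines (reads in no gene, 35.0 to 51.7% of counted reads, and ambiguous reads, 0.889 to 1.05%) stayed out of library sizes and tests. Without a known strand setting, reads of overlapping genes cannot be told apart; in RefSeq 12 members overlap another gene.

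Tamoxifen was compared with ethanol using edgeR 4.0.16 in R 4.3.3 (TMM, filterByExpr, robust quasi-likelihood test, group as the only term), fitted on 14479 genes, with Benjamini-Hochberg adjustment and a threshold of 0.05. Standard errors were taken from F, as |log2 fold change| / sqrt(F). GC correction entered each library's loess trend of log2 CPM deviation on transcript GC content (span 0.5, degree 1) as an offset. Transcript lengths and base composition were those of GENCODE M21 (GRCm38), in which 369 of 24428 symbols had no match. All 31 members and 99.4% of tested genes had a value. Paralog ratios used counts with 0.5 read added. Alternatives were other scaling, filters, DESeq2 1.42.0, limma 3.58.1 voom, a replicate block, a threshold of 0.01 and leaving out each library, in which the remaining library is taken to vary as the intact group does. The procedure was run on simulated data without a GC trend and with a linear one in the tamoxifen libraries. That run did not cover a trend within ethanol, and its outcome is not reported here. Members, lists and alternatives were chosen with earlier results of these data known. All members are named, and from the further lists the genes with the smallest adjusted p, up to 3 a list; 2 genes so ranked are not reported here.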

Additional observations from a re-analysis of the deposited data

How the results depend on the processing

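The number of libraries, 2 per group, limits every call. Over all genes, 2744 were called with GC correction and 3806 at a threshold of 0.01, against 6441. Leaving out 1 library gave 271 (GC correction, without tamoxifen replicate 2) to 7326 (without ethanol replicate 1). PRC2 members called higher, 1 in the main test, numbered 2 with total counts or GC correction, 3 with GC correction and the replicate block, and 0 to 2 when 1 library was left out. PRC2 members called lower, 2 in the main test, numbered 1 with total counts, GC correction (with or without the block) or the threshold of 0.01, 4 without a filter on low counts, 6 with the replicate block, and 0 to 5 when 1 library was left out. PRC1 members called higher, 7 in the main test, numbered 4 with GC correction and 1 to 9 when 1 library was left out. PRC1 members called lower, 1 in the main test, numbered 3 with the replicate block, 0 with GC correction and 0 to 2 when 1 library was left out. The cause was not tested.

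Replicate numbers are shared by the groups, but the labels do not say that they mark a shared batch or day. The differences between replicates 1 and 2 of each group correlated at 0.27 across genes. With the replicate block 8087 genes were called, and 8 members that had missed the threshold passed it (Rbbp4, Rbbp7, Mtf2, Phf19, Rnf2, Pcgf2, Pcgf6 and Phc1). With GC correction and the replicate block, 11 Polycomb target genes were higher and 3 lower.

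Directions turned under GC correction for 9 members. Without and with the replicate block the values were 0.0235 and 0.0235 for Eed, 0.0212 and 0.0213 for Suz12, 0.10 and 0.11 for Rbbp4, 0.0480 and 0.0452 for Rbbp7, -0.0163 and -0.0157 for Jarid2, 0.0903 and 0.11 for Mtf2, 0.32 and 0.32 for Rnf2 (called with the block), 0.0246 and 0.0260 for Pcgf6 and 0.27 and 0.26 for Rybp. Bcor turned to 0.0477 with upper-quartile factors and 0.11 with total counts. Ranges over left-out libraries, with and without GC correction, crossed 0 for Ezh2 (-0.64 to 0.0657), Eed (-0.20 to 0.0287), Suz12 (-0.72 to 0.0693), Rbbp4 (-0.37 to 0.21), Rbbp7 (-0.47 to 0.14), Jarid2 (-0.0602 to 0.12), Mtf2 (-0.85 to 0.41), Rnf2 (-0.40 to 0.35), Pcgf2 (-0.13 to 0.60), Pcgf3 (-0.0228 to 0.60), Pcgf6 (-0.35 to 0.10), Cbx2 (-0.0714 to 0.64), Cbx6 (-0.12 to 0.81), Cbx7 (-0.0022 to 0.69), Phc1 (-0.21 to 0.66), Phc3 (-0.32 to 0.10), Rybp (-0.41 to 0.45) and Bcor (-0.25 to 0.0368). Of the 13 called members, 8 kept their call in every setting without GC correction at the 0.05 threshold, 5 kept it with GC correction and all libraries, and 1 (Bmi1) kept it in every setting. GC correction raised the Bmi1 estimate because of its low transcript GC content, so the corrected runs do not single Bmi1 out. Among levels per kilobase, 19 of 31 moved by more than their SD with the longest transcript.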
